A study of Mus musculus with 9 samples.

Results

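The expression of 10 long non-coding RNA genes was compared between 3 populations of cultured mouse myoblasts, which divide and then fuse into muscle fibres. The genes were Platr3, Gas5, Snhg1, Snhg12, Zfas1, Mir17hg, Malat1, Neat1, Pvt1 and Miat, chosen by name from the 47729 genes in the count files. Of these, 9 were found by symbol and Zfas1, which the files list as Zfos1, by its gene identifier. The populations were SRCs of cycle 3 (SRC3), FRCs of cycle 1 (FRC1) and the parental cells (PAR), with 3 libraries each. All were FVB/N skeletal muscle myoblasts, and the title of the study calls SRCs and FRCs reserve cells, without expanding either abbreviation. The reserve populations had been passaged 2 times in proliferation conditions after isolation, every RNA had an integrity number of 10, and polyadenylated RNA was read in single reads of 50 nt. The labels do not say whether replicates came from separate cultures or whether a population was clonal, so the spread behind each p-value is that between these samples and may be technical.

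Long non-coding RNAs are transcripts that encode no known protein, and the selected genes stand for several ways in which such transcripts act. Gas5, Snhg1, Snhg12 and Zfas1 are host genes of small nucleolar RNAs (snoRNAs), which are cut out of their introns and guide chemical modification of ribosomal RNA, while the spliced host RNAs are decayed during translation. Mir17hg is the primary transcript of the miR-17-92 microRNA cluster, a transcriptional target of MYC and E2F factors. Malat1 resides in nuclear speckles and Neat1 builds paraspeckles, both of them bodies of the nucleus. Pvt1 lies beside the Myc gene, Platr3 is named as a pluripotency-associated transcript, and Miat is known for its binding of splicing factors, mainly in neural cells and the heart.

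Libraries held 13012996 to 14336279 counts in genes. Of the markers of the labelled cell type, Myod1 averaged 539 counts per 1000000 (CPM, scaled with TMM factors) in SRC3, 770.1 CPM in FRC1 and 776 CPM in PAR, and Pax7 averaged 72.6, 114 and 127 CPM in the same groups, while Myf5 was at or near 0 in all of them. Des and Cdh15 were likewise lowest in SRC3 and highest in PAR, and Msc was near 0. Ncam1 went the other way, with 223.5 CPM in SRC3, 229.1 CPM in FRC1 and 192.6 CPM in PAR. The 7 myoblast markers summed to 1420 to 1520 CPM in SRC3, 1930 to 2000 CPM in FRC1 and 2070 to 2120 CPM in PAR. The 5 markers of differentiated muscle summed to 7.44 to 18.3 CPM in SRC3, 67.1 to 84.0 CPM in FRC1 and 4.47 to 5.94 CPM in PAR, and the 5 of smooth muscle and pericytes to 4.25 to 14.9, 174 to 233 and 63.0 to 73.6 CPM. The lists for fibroblasts, endothelial, immune, glial and fat cells each summed to at most 5.67 CPM in any library, with Lum, Tcf21, Kdr, Tie1, Adgre1, Cd3e, Sox10, S100b and Plin1 at 0 counts. The part of these marker differences in the values below was not tested. In bulk RNA, fewer cells of a type and less RNA per cell cannot be told apart.

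The selected genes were chosen with their values in these comparisons known, so their differences are described here and carry no test. Miat had too few counts to be tested, and the other 9 genes passed the count filter, Platr3 through its reads in FRC1 and PAR. In SRC3 against PAR, 6 of these 9 genes had values that did not overlap between groups, as did 49.1% of all 12540 tested genes (23.7% higher in SRC3 and 25.4% lower). Gas5, Snhg1, Snhg12, Zfas1 and Mir17hg lay higher in every SRC3 library than in every PAR library, and Platr3 lay lower. In FRC1 against PAR, 2 of 9 genes did not overlap, Platr3 and Snhg12, both higher in FRC1, as against 44.2% of tested genes (21.8% higher in FRC1 and 22.4% lower). In SRC3 against FRC1, Platr3 alone of the 9 did not overlap and was lower in SRC3, as against 42.8% of tested genes (19.9% higher in SRC3 and 22.9% lower). The median log2 fold change of the 9 genes was 0.35 in SRC3 against PAR, 0.23 in FRC1 against PAR and 0.01 in SRC3 against FRC1, where that of all tested genes was 0.006, 0.003 and 0. Nothing is read from these shares and medians, since the choice of the genes used these comparisons.

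**Figure D1:**
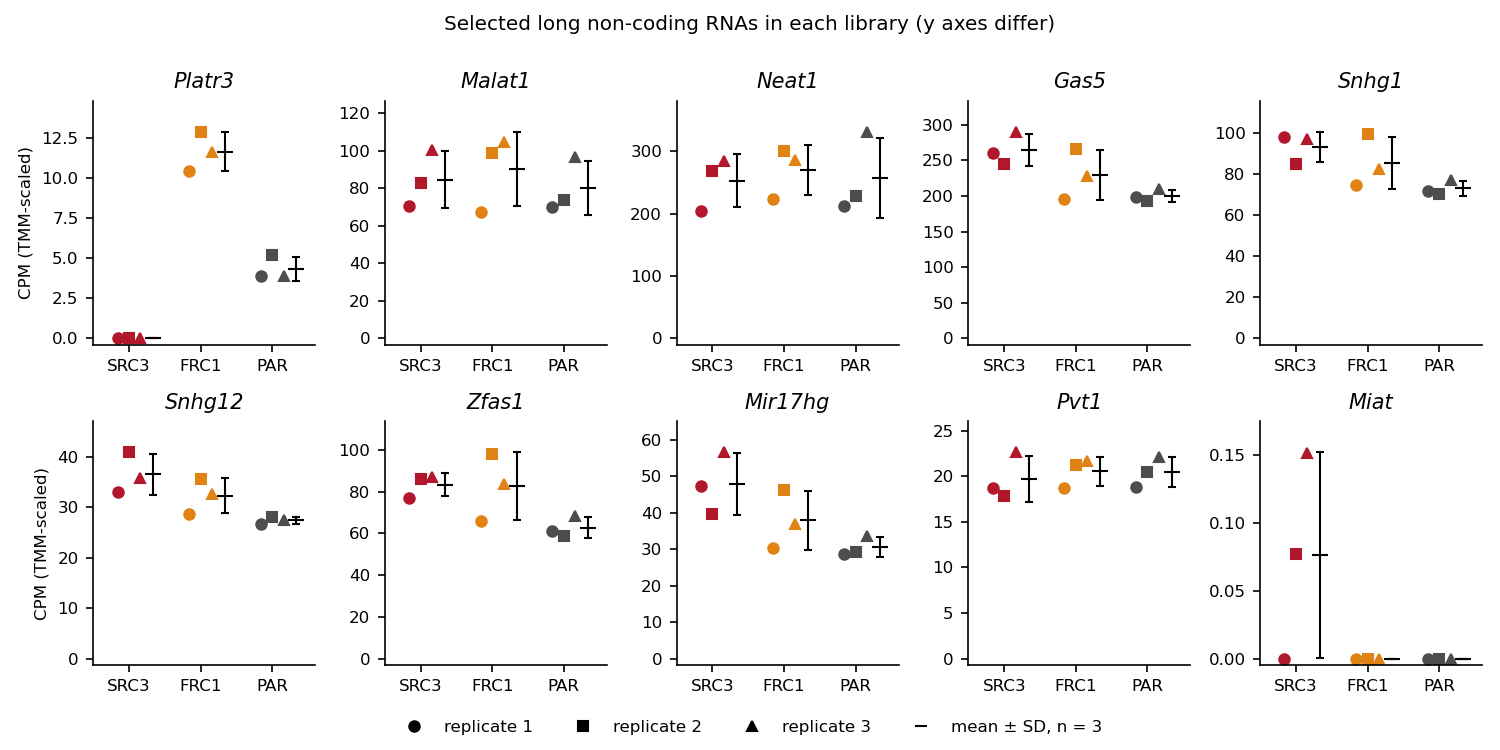
CPM (y axis, scaled with TMM factors, from 0, a different range in each panel) of the 10 genes in the SRC3, FRC1 and PAR libraries (x axis). Symbols mark replicates 1 to 3 and the black bars the mean ± SD (n = 3). Platr3 was at 0 in SRC3 and highest in FRC1, the 4 snoRNA host genes and Mir17hg were lowest on average in PAR, and the 3 groups overlapped for Malat1, Neat1 and Pvt1.

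Within groups the same libraries were low or high for most of the genes. FRC1 replicate 1 held the lowest FRC1 value of all 9 genes with reads in FRC1, and FRC1 replicate 2 the highest of 7. Without FRC1 replicate 1, 7 of 9 genes did not overlap between FRC1 and PAR, all of them higher in FRC1. Without PAR replicate 3, which held the highest PAR value of 7 genes, 5 did not overlap. Between SRC3 and FRC1, 5 of 9 genes did not overlap without FRC1 replicate 2, of which 4 were higher and 1 was lower in SRC3. A group with fewer libraries separates more easily from another. The share of all tested genes under these omissions is not given here, so nothing is read from these counts.

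Platr3 showed the widest differences of the 10 genes. It is a spliced lincRNA (ENSMUSG00000084762) at chr2:135648907-135652063 on the plus strand of GRCm38, with 412 bases of annotated exon. No SRC3 library held a single Platr3 read, FRC1 libraries held 138, 184 and 163, and PAR libraries held 56, 68 and 55. This corresponds to 0 CPM in the SRC3 libraries, 10.45, 12.9 and 11.6 CPM in the FRC1 libraries and 3.92, 5.20 and 3.90 CPM in the PAR libraries, so that the 3 groups were fully apart. Against a floor of 3 counts over the 3 libraries, which is 0.0754 CPM in SRC3, Platr3 was at least 155-fold lower in SRC3 than in FRC1 and at least 57.3-fold lower than in PAR. Its mean was 11.6 ± 1.21 CPM in FRC1 and 4.34 ± 0.745 CPM in PAR (SD, n = 3 each), a 2.68-fold difference and a log2 fold change of 1.43 ± 0.16 (SE).

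The genes on either side of Platr3 did not pass the test in any comparison, although Plcb4 was called lower in FRC1 against PAR without the count filter (adjusted p = 0.048), in a fit of only these groups and without SRC3 replicate 3 (0.041 in both). Plcb4, which encodes a phospholipase C and begins 6947 bases downstream on the same strand, averaged 30.8 ± 3.57 CPM in SRC3, 29.8 ± 2.31 CPM in FRC1 and 34.5 ± 2.51 CPM in PAR (SD, n = 3 each). Its adjusted p in the quasi-likelihood test of edgeR was 0.15 for SRC3 against PAR, 0.075 for FRC1 against PAR and 0.72 for SRC3 against FRC1. Plcb1, another phospholipase C gene 173648 bases upstream, averaged 3.54, 3.18 and 3.52 CPM in SRC3, FRC1 and PAR. Of 29 other Platr genes in the files 2 had enough counts to be tested, and Platr14 fell to 0.729 ± 0.0933 CPM in SRC3, against 2.66 ± 0.482 CPM in FRC1 (adjusted p = 6.3e-05) and 1.75 ± 0.512 CPM in PAR (adjusted p = 0.0048, edgeR). Over the 9 libraries, the pattern of log2 CPM of Kif16b was among the 2 most like that of Platr3 of 9549 candidate genes, with a Pearson r of 0.997. Kif16b, which encodes a kinesin motor, averaged 39.5 CPM in SRC3, 539 CPM in FRC1 and 286 CPM in PAR.

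The 100 bases around the annotated RefSeq start of Platr3 (GRCm38.p6, chr2:135646473-135646572, plus strand) are shown with those of the snoRNA host genes Gas5, Snhg1, Snhg12 and Zfas1, because a tract of pyrimidines at the start of transcription (the 5′ terminal oligopyrimidine tract, TOP) is a known feature of genes for ribosomal proteins and of snoRNA hosts. The annotated RefSeq start of Platr3 lies upstream of the GENCODE gene given above. Each sequence runs 5′ to 3′ with 50 bases on either side, and the capitals mark the longest unbroken run of C or T that begins within 10 bases of the start.
Platr3: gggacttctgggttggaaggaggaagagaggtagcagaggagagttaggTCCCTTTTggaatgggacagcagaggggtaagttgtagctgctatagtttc
Gas5: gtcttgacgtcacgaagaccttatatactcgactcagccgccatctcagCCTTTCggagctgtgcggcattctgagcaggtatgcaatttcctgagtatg
Snhg1: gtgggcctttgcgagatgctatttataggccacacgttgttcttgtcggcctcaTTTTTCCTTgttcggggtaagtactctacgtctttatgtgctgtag
Snhg12: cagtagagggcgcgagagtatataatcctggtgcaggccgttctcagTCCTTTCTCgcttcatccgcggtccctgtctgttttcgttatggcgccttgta
Zfas1: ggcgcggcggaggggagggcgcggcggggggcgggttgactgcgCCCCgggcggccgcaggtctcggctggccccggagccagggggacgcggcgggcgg

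The run was 9 bases long in Snhg1 (chr19:8723437-8723536) and in Snhg12 (chr4:132308628-132308727), 8 in Platr3, 6 at the second annotated start of Gas5 (chr1:161035116-161035215) and 4 in Zfas1 (chr2:167062884-167062983), all on the plus strand. At the first annotated start of Gas5 it was 3 bases long. Counted from the annotated start, the run began at base -1 in Platr3 and at the Gas5 start shown. It began at -3 in Snhg12, at -6 in Zfas1 and at 5 in Snhg1. The run of Zfas1 thus ended before the annotated start, and that of Snhg1 began after it. Among 32817 annotated mouse promoters, 8.84% had a run of at least 8 and 36.7% a run of at least 5 by the same search. Searched on both strands of the 300 bases from 250 before to 50 after each start, the cAMP response motif TGACGTCA was found at the Gas5 start shown, against 1.79% of promoters, and the motif CACGTG, which MYC binds, at none of these starts, against 7.15% of promoters. Promoters were found for 8 of the 10 genes in the RefSeq table, Neat1 and Pvt1 being without an entry. A match is a stretch of letters and no evidence of use.

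All 4 snoRNA host genes were higher on average in SRC3 and in FRC1 than in PAR. Gas5 (growth arrest specific 5, ENSMUSG00000053332, chr1:161034422-161038539, plus strand) measured 260.3, 246 and 289.9 CPM in the SRC3 libraries, 196, 266 and 228 CPM in the FRC1 libraries and 199, 193 and 209 CPM in the PAR libraries. Every SRC3 library exceeded every PAR library, and FRC1 overlapped both. The mean was 265 ± 22.5 CPM in SRC3, 229.9 ± 34.8 CPM in FRC1 and 200.4 ± 8.37 CPM in PAR (SD, n = 3 each). The log2 fold change was 0.40 ± 0.10 (SE) for SRC3 against PAR, 0.20 ± 0.10 for FRC1 against PAR and 0.21 ± 0.10 for SRC3 against FRC1.

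Snhg1 (ENSMUSG00000108414, chr19:8723475-8726443, plus strand) measured 98.1, 85.1 and 97.0 CPM in the SRC3 libraries, 74.6, 99.5 and 82.7 CPM in the FRC1 libraries and 71.8, 70.2 and 77.5 CPM in the PAR libraries. The SRC3 libraries lay above all PAR libraries, by 1.28-fold in the mean and by 0.35 ± 0.092 on the log2 scale (SE). The FRC1 libraries overlapped both other groups, with a mean 1.17-fold that of PAR.

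Snhg12 (ENSMUSG00000086290, chr4:132308623-132311024, plus strand) measured 33.0, 40.9 and 35.8 CPM in the SRC3 libraries, 28.7, 35.7 and 32.7 CPM in the FRC1 libraries and 26.8, 28.0 and 27.4 CPM in the PAR libraries. It was the only host gene of the 4 whose FRC1 libraries all lay above the PAR libraries, by 0.24 ± 0.090 on the log2 scale (SE), and the closest FRC1 and PAR libraries were 28.7 and 28.0 CPM. The difference of SRC3 against PAR was 0.42 ± 0.089, or 1.33-fold in the mean.

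Zfas1 (ENSMUSG00000074578, chr2:167062934-167065862, plus strand), transcribed from beside the start of Znfx1, measured 77.0, 85.9 and 87.0 CPM in the SRC3 libraries, 65.7, 98.2 and 83.7 CPM in the FRC1 libraries and 61.1, 58.6 and 68.3 CPM in the PAR libraries. SRC3 lay above PAR in every library and FRC1 replicate 1 fell within the range of PAR. Zfas1 had nearly equal means of 83.3 ± 5.47 CPM in SRC3 and 82.5 ± 16.3 CPM in FRC1, against 62.7 ± 5.03 CPM in PAR (SD, n = 3 each). The log2 fold change was 0.41 ± 0.13 (SE) for SRC3 against PAR and 0.40 ± 0.13 for FRC1 against PAR. These 2 comparisons share the PAR libraries, as do all such pairs here.

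**Figure D2:**
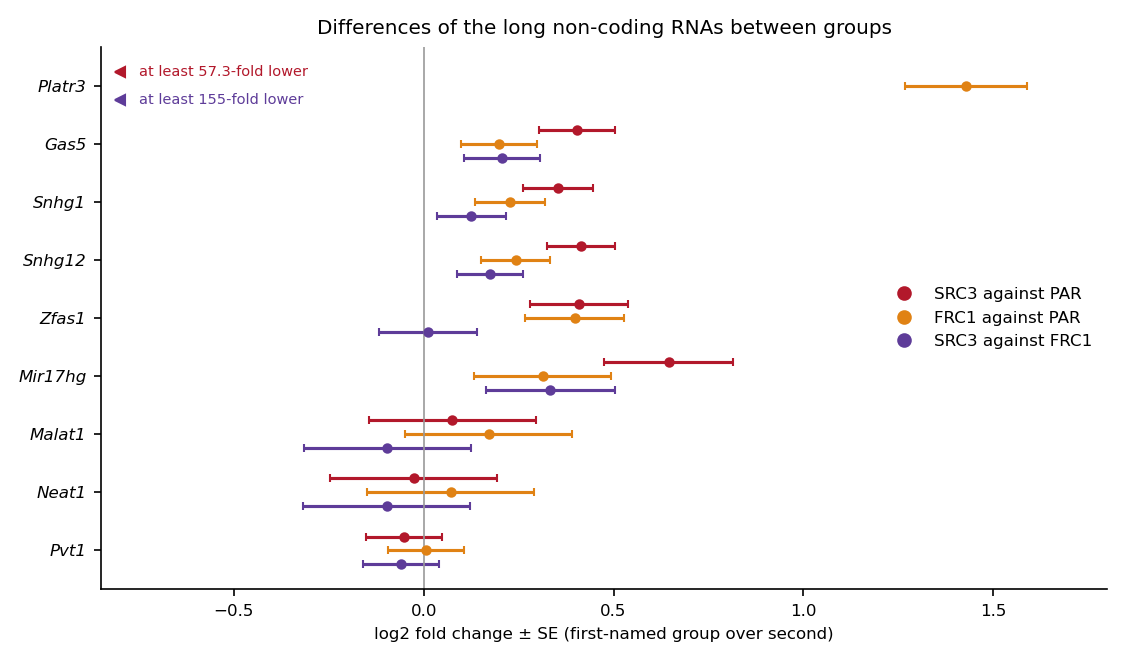
Log2 fold change ± SE (x axis, first-named group over the second) of 9 genes (rows) in the 3 comparisons (colours), with arrows for the bounds of Platr3 where SRC3 had 0 counts. The 4 snoRNA host genes and Mir17hg lie right of 0 in both comparisons with PAR, from 0.20 for Gas5 to 0.65 for Mir17hg, and Malat1, Neat1 and Pvt1 lie within 1 SE of 0.

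The snoRNAs that these genes carry gave no reads in any library. GENCODE M21 places 10 snoRNA genes within Gas5, 8 within Snhg1, 5 within Snhg12 and 3 within Zfas1, and each had 0 counts. The library protocol selects polyadenylated RNA, and the sources used here do not say how reads lying in a snoRNA and its host were counted, so these values do not show that the snoRNAs were absent. The annotated exons of Snhg1, Snhg12 and Zfas1 together cover the whole locus (2969, 2402 and 2929 bases), so spliced and unspliced host RNA cannot be told apart there. The counting strand is not given in the sources used here, and reads in the overlap of Gas5 with Zbtb37 or of Zfas1 with Znfx1, which run antisense to them, cannot be told apart. Neither partner passed the test in any comparison, with adjusted p of 0.25, 0.98 and 0.29 for Zbtb37 and 0.55, 0.21 and 0.056 for Znfx1 in SRC3 against PAR, FRC1 against PAR and SRC3 against FRC1. Zbtb37 was called higher in SRC3 against PAR without PAR replicate 3 (adjusted p = 0.049), and Znfx1 lower in SRC3 against FRC1 without FRC1 replicate 2 (0.016), without SRC3 replicate 2 (0.040) and without the count filter (0.044).

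Among other long non-coding hosts of snoRNAs, more were higher than lower in SRC3 against PAR. Their list was chosen with earlier results of these data known, so it is no independent check of the selected 4. Of 14 tested hosts other than the selected 4, 8 were higher and 0 were lower in SRC3 against PAR, with a median log2 fold change of 0.32, where 37.9% of all tested genes changed, 17.8% higher and 20.2% lower, at an adjusted p under 0.05 in edgeR, with a median of 0.006. Snhg5 rose to 92.4 ± 6.83 CPM in SRC3, against 64.8 ± 2.64 CPM in PAR (log2 fold change 0.51, adjusted p = 0.0090). Snhg4 rose to 66.6 ± 3.59 CPM in SRC3, against 46.3 ± 7.94 CPM in PAR (0.52, adjusted p = 0.013). Snhg18 had the highest fold change of the list, with 7.06 ± 1.82 CPM in SRC3 and 3.28 ± 0.645 CPM in PAR (1.10, adjusted p = 0.00019). Snhg3, Snhg6, Snhg17, 1110038B12Rik and 2410006H16Rik were the other hosts that rose, by 0.24 to 0.49 on the log2 scale, and all 8 had groups that did not overlap.

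In FRC1 against PAR, 5 of the 14 hosts were higher and 0 were lower, with a median log2 fold change of 0.25, where 28.3% of all tested genes changed, 13.6% higher and 14.7% lower. These were Snhg6, Snhg8, Snhg17, Gm11974 and 1110038B12Rik, of which Snhg8 alone had groups that did not overlap, with 34.7 ± 3.06 CPM in FRC1 and 28.7 ± 2.06 CPM in PAR (log2 fold change 0.28, adjusted p = 0.015, edgeR). The count changed when single libraries were left out. It was 0 without FRC1 replicate 2, without FRC1 replicate 3 or without PAR replicate 1, 2 without PAR replicate 2 and 7 without FRC1 replicate 1. Over all tested genes, those called in FRC1 against PAR also moved under such omissions, from 2327 to 3987. The changes of the host count are therefore not read as particular to the hosts. In SRC3 against FRC1, Snhg18 rose and Snhg8 fell, where 33.5% of all tested genes changed, 15.5% higher and 18% lower. The count of higher hosts was 4 without FRC1 replicate 2. The count of lower hosts was 0 under 8 of the 9 omissions of a library, the exception being FRC1 replicate 1, and 0 with DESeq2.

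**Figure D3:**
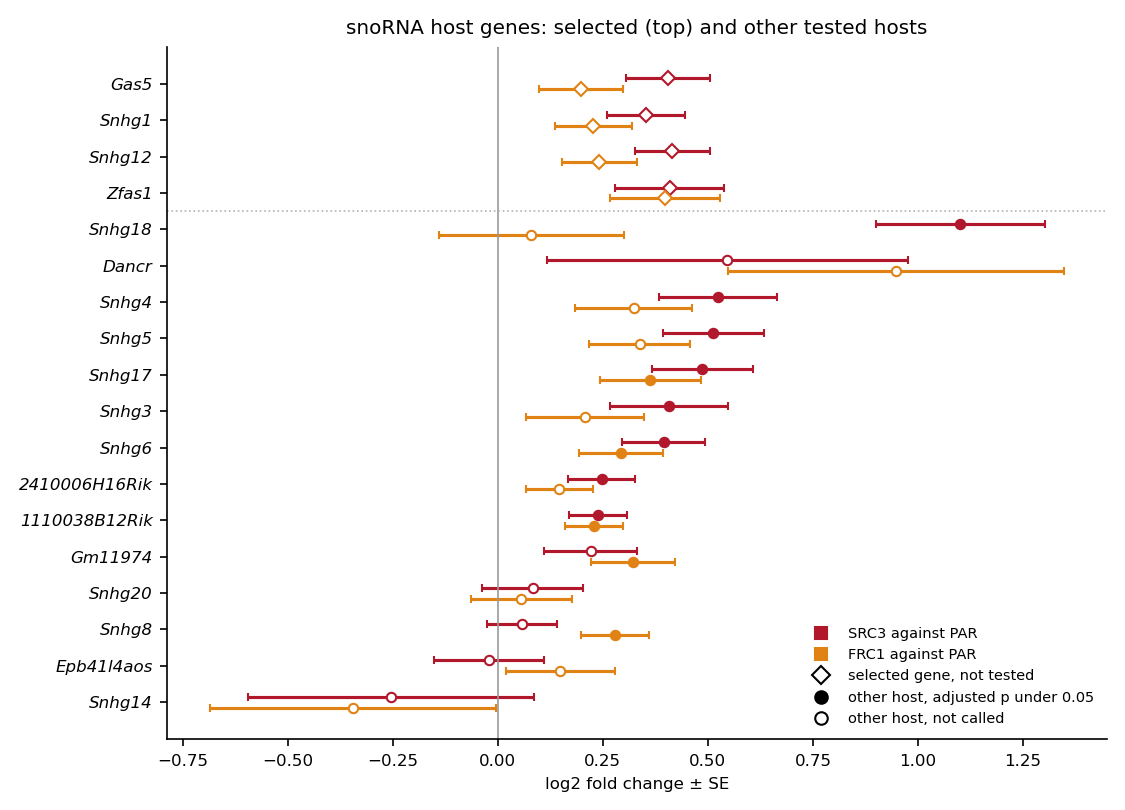
Log2 fold change ± SE (x axis) of the 4 selected snoRNA host genes (diamonds, above the dotted line) and of the 14 other tested hosts (circles, ordered by their value in SRC3 against PAR) in SRC3 against PAR (red) and FRC1 against PAR (orange). Filled circles mark an adjusted p under 0.05 in edgeR: 8 in SRC3 against PAR and 5 in FRC1 against PAR, all higher.

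Genes for the proteins that assemble or use these RNAs included some that rose and some that fell. Of 16 genes of snoRNA-protein particles, 5 rose and 2 fell in SRC3 against PAR, 3 rose and 1 fell in FRC1 against PAR, and 0 rose and 4 fell in SRC3 against FRC1, where 37.9%, 28.3% and 33.5% of all tested genes changed in these comparisons. Nop58, a core protein of the C/D-box class, rose to 437 ± 12.7 CPM in SRC3, against 384 ± 10.4 CPM in PAR (adjusted p = 0.0055), while Naf1, an assembly factor of the H/ACA class, fell to 38.9 ± 2.43 CPM in SRC3, against 55.9 ± 1.13 CPM in PAR (adjusted p = 5.1e-06). Nop56, the partner of Nop58, rose to 277 ± 15.7 CPM in FRC1, against 235 ± 5.12 CPM in PAR (adjusted p = 0.0030, edgeR). Znhit3, an assembly factor, rose by 0.36 on the log2 scale in SRC3 and by 0.41 in FRC1 against PAR, Nhp2 rose by 0.22 in SRC3 against PAR and Nhp2l1 rose by 0.23 in FRC1 against PAR. In SRC3 against FRC1, Naf1, Nop10 and Ruvbl1 fell, with log2 fold changes of -0.31, -0.22 and -0.17. The 5 particle genes higher in SRC3 against PAR numbered 3 without PAR replicate 3 or SRC3 replicate 2, and the 4 lower in SRC3 against FRC1 numbered 2 without SRC3 replicate 1 and 1 without FRC1 replicate 3 or SRC3 replicate 3. The 3 higher in FRC1 against PAR numbered 5 without SRC3 replicate 2 or 3 and the 1 lower 0 without FRC1 replicate 3 or PAR replicate 2 or 3, the 2 lower in SRC3 against PAR numbered 1 without SRC3 replicate 3 or PAR replicate 1 or 2, and 1 was higher in SRC3 against FRC1 without FRC1 replicate 2. Among 19 mRNAs other than those of ribosomal proteins that are known to begin with a TOP tract, 2 rose and 4 fell in SRC3 against PAR, 0 rose and 2 fell in FRC1 against PAR, and 1 rose and 1 fell in SRC3 against FRC1, with the same shares of all tested genes. Eif3f, a subunit of an initiation factor, fell to 248 ± 9.15 CPM in SRC3 (adjusted p = 0.00060) and to 249.6 ± 9.29 CPM in FRC1 (adjusted p = 0.0014), against 294 ± 13.2 CPM in PAR. Eif3e and Btf3 rose in SRC3 against PAR (log2 fold changes 0.17 and 0.16), Hnrnpa1 fell in FRC1 against PAR (-0.12), and in SRC3 against FRC1 Eif3e rose (0.21) and Eef1d fell (-0.12). The 4 TOP mRNAs lower in SRC3 against PAR numbered 2 without SRC3 replicate 1 or 3 or PAR replicate 1 or 2, and the 2 higher numbered 0 without SRC3 replicate 1, 4 without SRC3 replicate 3 and 1 without PAR replicate 3. In FRC1 against PAR, 1 TOP mRNA fell without any 1 FRC1 or PAR library and 1 rose without FRC1 replicate 1. Between SRC3 and FRC1, 3 rose without SRC3 replicate 3 and 2 without FRC1 replicate 2, and 0 fell without any 1 library other than SRC3 replicate 2.

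Of 18 factors of nonsense-mediated decay, the pathway that degrades spliced snoRNA hosts such as Gas5, 6 rose and 0 fell in SRC3 against PAR. In FRC1 against PAR 5 rose and 3 fell, and in SRC3 against FRC1 3 rose and 2 fell, where 37.9%, 28.3% and 33.5% of all tested genes changed in these comparisons. The 5 that rose in FRC1 against PAR numbered 2 without FRC1 replicate 3 or PAR replicate 1 and 3 without FRC1 replicate 2 or PAR replicate 2 or 3, and the 3 that fell numbered 1 without FRC1 replicate 3 or PAR replicate 3. The 2 that fell in SRC3 against FRC1 numbered 0 without SRC3 replicate 1 or FRC1 replicate 3 and 1 without any other library but FRC1 replicate 1. Magoh, a protein of the exon junction complex, rose to 89.5 ± 4.04 CPM in SRC3 (adjusted p = 0.0029) and to 90.4 ± 3.06 CPM in FRC1 (adjusted p = 0.0029), against 76.6 ± 2.35 CPM in PAR. Nbas rose by 0.32 on the log2 scale in SRC3 and by 0.42 in FRC1 against PAR, and Casc3, another exon junction protein, rose by 0.23 in SRC3 against PAR. Pnrc2 fell in FRC1 against PAR (-0.34) and rose in SRC3 against FRC1 (0.31), where Smg9 also rose (0.24). Upf1, the central helicase, averaged 137 ± 7.23 CPM in SRC3, 155 ± 2.03 CPM in FRC1 and 142 ± 3.15 CPM in PAR, and fell in SRC3 against FRC1 (log2 fold change -0.18, adjusted p = 0.0083) without passing the test against PAR in either population (adjusted p = 0.40 for SRC3 and 0.068 for FRC1, edgeR).

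Mir17hg (ENSMUSG00000089726, chr14:115042879-115046727, plus strand) carries 6 microRNA hairpins. The mature arms usually taken as active are shown because they define which mRNAs the cluster can bind, from RefSeq (GRCm38.p6, chromosome 14, plus strand) and grouped by seed, with the seed (bases 2 to 8) in capitals.
miR-17-5p: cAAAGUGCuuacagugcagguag
miR-20a-5p: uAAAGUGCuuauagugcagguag
miR-18a-5p: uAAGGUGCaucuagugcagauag
miR-19a-3p: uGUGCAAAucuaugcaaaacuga
miR-19b-3p: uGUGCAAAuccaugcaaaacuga
miR-92a-3p: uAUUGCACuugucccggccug

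The 6 arms have 4 distinct seeds, of which miR-17-5p and miR-20a-5p share 1 and miR-19a-3p and miR-19b-3p share another. The seed of miR-17-5p is found in 7 of the 1679 mature mouse miRNAs of the table, that of miR-92a-3p in 6, and those of miR-18a-5p and miR-19a-3p in 2 each. The hairpins themselves had 0 counts in every library, so the mature miRNAs were not measured here and the values are those of the host transcript.

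Mir17hg was the most raised of the 9 measurable genes in SRC3 against PAR by fold of means. It measured 47.2, 39.5 and 56.6 CPM in the SRC3 libraries, 30.4, 46.4 and 36.8 CPM in the FRC1 libraries and 28.7, 29.2 and 33.7 CPM in the PAR libraries. Every SRC3 library lay above every PAR library, while FRC1 overlapped both, its replicate 1 lying within the range of PAR. The mean was 47.8 ± 8.53 CPM in SRC3, 37.9 ± 8.01 CPM in FRC1 and 30.5 ± 2.77 CPM in PAR (SD, n = 3 each). This was 1.56-fold for SRC3 against PAR, a log2 fold change of 0.65 ± 0.17 (SE), and 1.24-fold for FRC1 against PAR, or 0.31 ± 0.18.

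Among 19 genes of the MYC and E2F families and their partners, which include regulators of the cluster, 6 rose and 3 fell in SRC3 against PAR, 3 rose and 3 fell in FRC1 against PAR, and 7 rose and 2 fell in SRC3 against FRC1, where 37.9%, 28.3% and 33.5% of all tested genes changed in these comparisons (17.8%, 13.6% and 15.5% higher). E2f1, a cell cycle factor, averaged 51.6 ± 4.13 CPM in SRC3, 44.1 ± 2.42 CPM in FRC1 and 41.3 ± 1.20 CPM in PAR, and rose in SRC3 against PAR (log2 fold change 0.32, adjusted p = 0.00099) and against FRC1 (0.23, adjusted p = 0.015, edgeR). E2f7, a repressor of the same family, rose to 66.2 ± 4.08 CPM in SRC3, against 44.0 ± 2.85 CPM in PAR (0.59, adjusted p = 1.3e-06). Mxd4, which opposes MYC at its binding sites, fell to 16.7 ± 0.803 CPM in SRC3 and to 24.5 ± 1.21 CPM in FRC1, against 43.0 ± 1.21 CPM in PAR (adjusted p = 1.8e-11 and 1.6e-07, edgeR). Mycn, a relative of Myc, fell to 0.350 ± 0.0772 CPM in SRC3 and to 0.805 ± 0.396 CPM in FRC1, against 1.64 ± 0.159 CPM in PAR. Mycl fell in FRC1 against PAR (log2 fold change -0.54), and E2f2 and E2f7 rose in SRC3 against FRC1 (0.46 and 0.53), where Mxd4 fell (-0.55). In FRC1 against PAR, 1 gene of the list rose and 1 fell without FRC1 replicate 3 or PAR replicate 1, and 1 rose without PAR replicate 2.

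The mRNAs reported elsewhere as targets of the cluster moved both ways. Of 27, 6 rose and 13 fell in SRC3 against PAR, with a median log2 fold change of -0.18, and 3 rose and 11 fell in FRC1 against PAR, with a median of -0.18. Both comparisons share the PAR libraries. In SRC3 against FRC1, 8 rose and 8 fell. Of all tested genes 20.2% fell in SRC3 against PAR and 14.7% in FRC1 against PAR, 37.9%, 28.3% and 33.5% changed in the 3 comparisons, and the median log2 fold change was 0.006, 0.003 and 0. The 3 that rose in FRC1 against PAR numbered 1 without PAR replicate 2. With single libraries left out, the 13 that fell in SRC3 against PAR numbered 9 to 12. The 11 that fell in FRC1 against PAR numbered 10 to 13. E2f1, E2f2 and E2f3 stand both in this list and in that of the MYC and E2F families. Ccnd2, a D-type cyclin, fell to 209.5 ± 12.1 CPM in SRC3 and to 332 ± 17.4 CPM in FRC1, against 442 ± 4.37 CPM in PAR (adjusted p = 1.5e-12 and 5.1e-06). Bcl2l11, which encodes the pro-apoptotic protein BIM, was 21.2 ± 1.67 CPM in SRC3, 12.5 ± 1.46 CPM in FRC1 and 17.5 ± 0.897 CPM in PAR, so that it rose in SRC3 (adjusted p = 0.030) and fell in FRC1 (adjusted p = 0.0018). Dab2, an adaptor of endocytosis, showed the same order, with 95.7 ± 1.03 CPM in SRC3, 37.2 ± 5.15 CPM in FRC1 and 58.0 ± 1.65 CPM in PAR. Rb1, the retinoblastoma gene, fell to 12.9 ± 2.16 CPM in FRC1, against 20.7 ± 1.37 CPM in PAR (adjusted p = 0.00025), and measured 18.8 ± 2.55 CPM in SRC3 (adjusted p = 0.36 against PAR). Mylip, which encodes a ubiquitin ligase, fell to 2.04 ± 0.549 CPM in SRC3 and to 1.59 ± 0.276 CPM in FRC1, against 3.51 ± 0.318 CPM in PAR. Ctgf, a matricellular factor, rose to 1.81 ± 0.173 CPM in SRC3 and to 2.06 ± 1.75 CPM in FRC1, against 0.382 ± 0.286 CPM in PAR, at 16 counts over the PAR libraries. Thbs1, another matricellular protein, fell in SRC3 against FRC1, with 78.3 ± 12 CPM in SRC3 and 145 ± 31.8 CPM in FRC1.

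Malat1 (ENSMUSG00000092341, chr19:5795690-5802672, minus strand) and Neat1 (ENSMUSG00000092274, chr19:5824708-5845478, minus strand) neighbour each other, and for both the SD within each group was larger than the differences between the group means. Malat1 measured 70.4, 82.8 and 100.5 CPM in the SRC3 libraries, 67.6, 98.7 and 104 CPM in the FRC1 libraries and 70.3, 73.7 and 96.8 CPM in the PAR libraries. Neat1 measured 204, 269 and 284 CPM in the SRC3 libraries, 224, 300.0 and 286 CPM in the FRC1 libraries and 212, 228 and 330.5 CPM in the PAR libraries. For both genes the 3 groups overlapped throughout. The library protocol selects polyadenylated RNA, so copies of either RNA that are not polyadenylated may be missed in these values. The log2 fold change of Malat1 was 0.08 ± 0.22 (SE) for SRC3 against PAR and 0.17 ± 0.22 for FRC1 against PAR, and that of Neat1 was -0.03 ± 0.22 and 0.07 ± 0.22. Both standard errors were larger than those of the snoRNA hosts, of which the largest was 0.13.

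Within groups, the level of both RNAs moved with the share of uniquely aligned reads that lay in no gene. In SRC3 that share was 6.79, 7.15 and 7.92% in replicates 1 to 3, in FRC1 it was 5.94, 6.84 and 7.25%, and in PAR it was 5.92, 5.94 and 6.75%. In each of the 3 groups the libraries stood in the same order for Malat1 as for this share, and for Neat1 they did so in SRC3 and PAR. The share rose from replicate 1 to replicate 3 in every group, so it cannot be told apart from the replicate number. Over the 9 libraries Malat1 and Neat1 correlated with each other with a Pearson r of 0.911 on log2 CPM, given as a description since the libraries share their composition. Ccnl2, a cyclin of nuclear speckles, was among the 2 genes most like each of them, with r of 0.958 for Malat1 and 0.888 for Neat1. The part of the reads outside genes in these values was not tested.

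**Figure D4:**
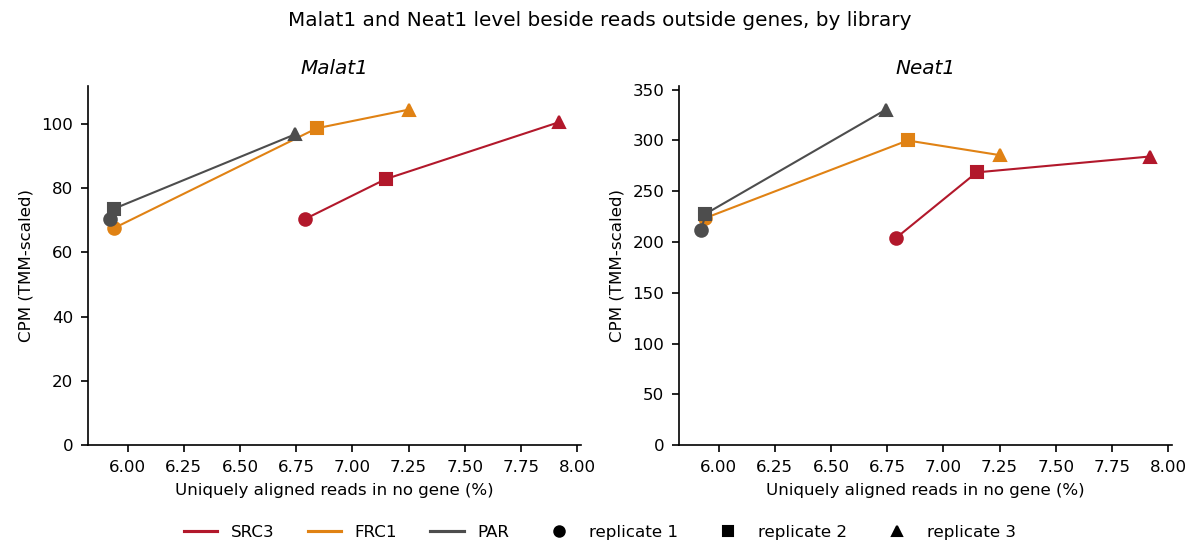
CPM (y axis, from 0) of Malat1 and of Neat1 in the 9 libraries beside the percentage of uniquely aligned reads that lay in no gene (x axis). Lines join the 3 libraries of SRC3, FRC1 and PAR, and symbols mark the replicates. Malat1 rises along each line, to 100.5 CPM in SRC3, 104 CPM in FRC1 and 96.8 CPM in PAR, while Neat1 turns down at the last FRC1 library.

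Genes for protein partners of the nuclear bodies were read by the same test. Of 21 paraspeckle proteins, 4 rose and 3 fell in SRC3 against PAR, 1 rose and 7 fell in FRC1 against PAR, and 8 rose and 3 fell in SRC3 against FRC1, where 37.9%, 28.3% and 33.5% of all tested genes changed in these comparisons. Nono and Sfpq, the core proteins that bind Neat1, did not pass the test in any comparison, with 370.3 ± 10.1 CPM for Nono in SRC3, 350.4 ± 4.20 CPM in FRC1 and 356 ± 3.54 CPM in PAR (SD, n = 3 each). Cirbp, a cold-inducible RNA-binding protein, measured 48.3 ± 3.22 CPM in SRC3, 28.0 ± 2.01 CPM in FRC1 and 47.6 ± 1.42 CPM in PAR, and fell in FRC1 against PAR (adjusted p = 2.9e-07, edgeR). Rbm12 and Matr3 fell in FRC1 against PAR (log2 fold changes -0.46 and -0.35), Hnrnph3 and Taf15 rose and Ahdc1 fell in SRC3 against PAR (0.39, 0.26 and -0.41), and Cirbp, Rbmx and Taf15 rose in SRC3 against FRC1 (0.79, 0.57 and 0.33). The 3 paraspeckle genes lower in SRC3 against PAR numbered 6 without SRC3 replicate 3, and the 1 higher in FRC1 against PAR numbered 2 without SRC3 replicate 3 or FRC1 replicate 1 and 0 without FRC1 replicate 2 or 3 or PAR replicate 1 or 2. Of 20 speckle and SR splicing proteins, 8 rose and 1 fell in SRC3 against PAR, 4 rose and 0 fell in FRC1 against PAR, and 5 rose and 1 fell in SRC3 against FRC1, with the same shares of all tested genes. Srsf3, Srsf6 and Srsf7, all SR proteins, rose by 0.37 to 0.38 on the log2 scale in SRC3 against PAR, and Srsf7 measured 287 ± 11.3 CPM in SRC3 and 220.2 ± 3.84 CPM in PAR (adjusted p = 9.9e-06). Srsf4, Srsf7 and Tra2a rose in FRC1 against PAR (0.20, 0.26 and 0.13), and Srsf3, Srsf5 and Srsf6 rose in SRC3 against FRC1 (0.28, 0.34 and 0.27). The 4 speckle genes higher in FRC1 against PAR numbered 2 without FRC1 replicate 2 or 3 or PAR replicate 1 or 2. The 1 lower in SRC3 against PAR numbered 0 without any 1 library other than SRC3 replicate 2 and FRC1 replicate 1, the 1 lower in SRC3 against FRC1 numbered 0 without any but FRC1 replicate 1, and 1 was lower in FRC1 against PAR without SRC3 replicate 2.

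Pvt1 (ENSMUSG00000097039, chr15:62037986-62378096, plus strand) had nearly equal levels in the 3 populations. It measured 18.7, 17.9 and 22.6 CPM in the SRC3 libraries, 18.7, 21.2 and 21.6 CPM in the FRC1 libraries and 18.8, 20.5 and 22.1 CPM in the PAR libraries. The groups overlapped, and the log2 fold changes were -0.05 ± 0.10 (SE) for SRC3 against PAR, 0.01 ± 0.10 for FRC1 against PAR and -0.06 ± 0.10 for SRC3 against FRC1. Myc, the growth-promoting transcription factor gene that lies 47611 bases upstream on the same strand, rose in SRC3. It averaged 217 ± 17.5 CPM in SRC3, 184 ± 7.21 CPM in FRC1 and 179 ± 7.35 CPM in PAR, with a log2 fold change of 0.28 ± 0.057 (SE, adjusted p = 0.00065) for SRC3 against PAR and 0.24 ± 0.057 (adjusted p = 0.0031) for SRC3 against FRC1. Myc did not pass the test in FRC1 against PAR (0.04, adjusted p = 0.63, edgeR). Whether Pvt1 and Myc differ in their change was not tested.

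Miat (ENSMUSG00000097767, chr5:112213228-112229395, minus strand) was barely detected. The SRC3 libraries held 0, 1 and 2 reads, which is at most 0.152 CPM, and the FRC1 and PAR libraries held 0, where 3 counts over a group would be 0.0722 CPM in FRC1 and 0.0724 CPM in PAR. A difference was not detectable at this depth. Of 3 genes for splicing regulators reported to bind Miat or to sit beside it in the nucleus, Celf3 was at 0 counts, Qk fell to 302 ± 20.2 CPM in FRC1, against 412 ± 23.3 CPM in PAR (adjusted p = 2.6e-05), and Sf1 rose to 400.1 ± 20.2 CPM in SRC3, against 368 ± 5.74 CPM in PAR (adjusted p = 0.042, edgeR). The call for Sf1 was lost without SRC3 replicate 2 or 3 and without any 1 PAR library.

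Levels were compared between genes only per kilobase of annotated exon. On that scale Gas5 was the highest of the 10 in each population, with 70.5 CPM per kb in SRC3, 61.1 in FRC1 and 53.3 in PAR, followed by Snhg1 with 31.5, 28.8 and 24.6 CPM per kb. Pvt1 was the lowest of the genes with reads in all groups, with 2.82 CPM per kb in SRC3 and 2.93 in FRC1 and in PAR. Platr3 was the gene that changed place most, with 0 CPM per kb in SRC3, 28.3 in FRC1, close to Snhg1 and Zfas1, and 10.5 in PAR. The annotated exons of Snhg1, Snhg12 and Zfas1 cover their whole loci, while those of Platr3 hold 412 of 3157 bases. Places on this scale therefore depend on the annotation, and on how far each RNA was captured as polyadenylated RNA. Malat1, Neat1 and Snhg12, next to each other in this ranking, lay between 11.4 and 12.4 CPM per kb in PAR and their order there does not exceed their spread.

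Across the 9 libraries the Pearson r among the 4 snoRNA hosts and Mir17hg lay between 0.739, for Snhg1 with Snhg12, and 0.987, while Malat1 with Pvt1, outside these genes, had 0.802. The Pearson r of log2 CPM was 0.987 between Gas5 and Mir17hg, 0.962 between Gas5 and Snhg1, 0.960 between Snhg1 and Mir17hg, 0.874 between Gas5 and Zfas1 and 0.809 between Gas5 and Snhg12. Outside the selected genes, Smoc2, which encodes a matrix protein, and the snoRNA host Snhg3 were most like both Gas5 (r of 0.991 and 0.970) and Mir17hg (0.967 and 0.965). The genes most like Snhg1 were Psmd14 (0.975) and Psma6 (0.969), both for proteasome subunits, Acsbg1 (0.964) was among the 2 most like Snhg12, those most like Zfas1 were Hnrnpab (0.975) and Ncam1 (0.963), and Smc5 (0.932) was the most like Pvt1. Zfc3h1 (0.921) followed Ccnl2 for Malat1, and Smad6 (0.901) was the most like Neat1. These correlations describe 9 libraries of 3 groups and share their depth and composition.

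Most of the nearest tested genes beside the selected loci did not pass the test. Of 20 such neighbours, 3 rose and 0 fell in SRC3 against PAR, 4 rose and 1 fell in FRC1 against PAR, and 4 rose and 3 fell in SRC3 against FRC1, with shares of 37.9%, 28.3% and 33.5% for all tested genes. Slc3a2, which encodes a subunit of amino acid transporters and starts 105 bases from Snhg1 on the other strand, averaged 329 ± 20.6 CPM in SRC3, 299 ± 6.58 CPM in FRC1 and 301 ± 9.97 CPM in PAR (log2 fold change 0.13, adjusted p = 0.046 for SRC3 against PAR, with groups that overlapped). Gpc6, a glypican gene 1878587 bases beyond Mir17hg, rose in SRC3 to 39.5 ± 2.95 CPM and fell in FRC1 to 23.8 ± 0.937 CPM, against 33.4 ± 1.58 CPM in PAR (adjusted p = 0.014 and 0.00010, edgeR), the rise being lost without SRC3 replicate 3 or PAR replicate 1 (0.069 in both). Among the genes that rose in FRC1 against PAR were Wdr74 beside Snhg1, Taf12 beside Snhg12 and Ddx27 beside Zfas1, by 0.16 to 0.26 on the log2 scale. In SRC3 against FRC1, Slc3a2, Gpc6, Myc and Fam49b rose, and the genes that fell included Taf12 and Cryba4. Rc3h1 beside Gas5, Frmd8 beside Neat1, Trnau1ap beside Snhg12, Tpm3-rs7 beside Mir17hg, Pitpnb beside Miat and the pseudogene Gm11472 beside Zfas1 did not pass the test in any comparison, but Frmd8 was called higher in SRC3 against FRC1 under 4 alternatives, among them leaving out SRC3 replicate 1 (adjusted p = 0.029) or FRC1 replicate 1 (0.037).

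**Figure D5:**
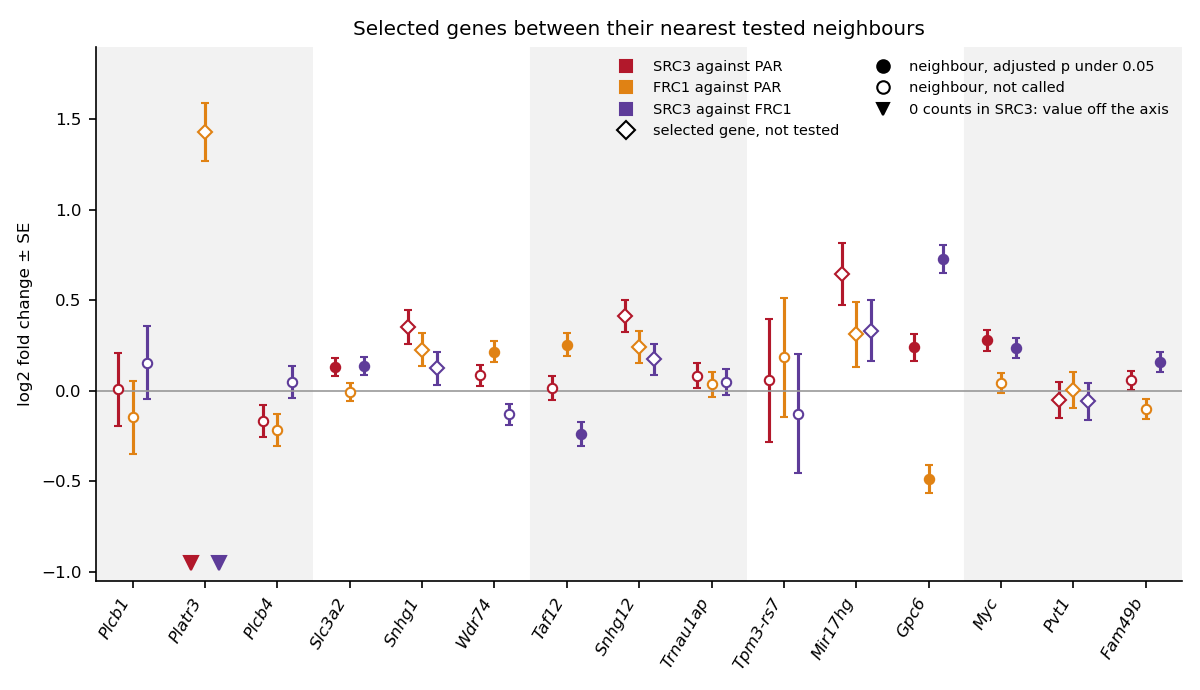
Log2 fold change ± SE (y axis) of Platr3, Snhg1, Snhg12, Mir17hg and Pvt1 (diamonds, not tested) between their nearest tested neighbours (circles, filled where the adjusted p was under 0.05 in edgeR), in genomic order within each shaded block, for the 3 comparisons (colours). Both neighbours of Platr3 stay within 0.22 of 0, while Platr3 is at 1.43 in FRC1 against PAR and off the axis where SRC3 had 0 counts. Myc lies above Pvt1 in both comparisons of SRC3.

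Of the other long non-coding RNA genes of the annotation, 450 were tested. Of these, 67 rose and 44 fell in SRC3 against PAR (24.7%), 23 rose and 33 fell in FRC1 against PAR (12.4%), and 41 rose and 35 fell in SRC3 against FRC1 (16.9%). The shares of protein-coding genes were 39.8%, 30.4% and 35.8%. The long non-coding genes had a median level of 1.92 CPM and the protein-coding genes 38.0 CPM. Their median absolute log2 fold changes were 0.337, 0.264 and 0.287, against 0.171, 0.149 and 0.156 for protein-coding genes. The shares therefore do not show that long non-coding genes differed less, and the part of the level in them was not tested. The count of 56 for FRC1 against PAR was 25 without FRC1 replicate 3, 34 without FRC1 replicate 2, and 31, 37 and 33 without PAR replicates 1, 2 and 3.

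H19, an imprinted transcript abundant in embryonic muscle, fell to 150.5 ± 12.6 CPM in SRC3 and to 709.5 ± 121 CPM in FRC1, against 1054 ± 34.8 CPM in PAR (log2 fold change -2.81 and -0.57, adjusted p = 2.5e-07 and 0.0062, edgeR). Ftx, a transcript of the X-inactivation centre, rose to 13.7 ± 1.17 CPM in SRC3, against 8.08 ± 0.957 CPM in PAR (adjusted p = 0.00057). Mirt1 rose to 13.2 ± 2.56 CPM in FRC1, against 6.30 ± 0.248 CPM in PAR (adjusted p = 0.00080). Dnm3os, which runs antisense to Dnm3 and hosts microRNAs, rose to 14.3 ± 5.61 CPM in FRC1, against 7.13 ± 0.266 CPM in PAR (adjusted p = 0.021). Junos, antisense to Jun, rose to 6.00 ± 0.400 CPM in SRC3, against 2.75 ± 0.261 CPM in FRC1 (adjusted p = 2e-05). Reads of antisense genes cannot be told apart from those of their partners without the counting strand. Of 19 tested genes among 33 other named long non-coding RNAs, 4 rose and 3 fell in SRC3 against PAR, 3 rose and 1 fell in FRC1 against PAR, and 0 rose and 2 fell in SRC3 against FRC1, where 37.9%, 28.3% and 33.5% of all tested genes changed in these comparisons. The 4 that rose in SRC3 against PAR numbered 2 without SRC3 replicate 2 and 1 without PAR replicate 1, and the 3 that rose in FRC1 against PAR numbered 1 without PAR replicate 1 or 3. The 1 that fell in FRC1 against PAR numbered 3 without FRC1 replicate 1, and the 2 that fell in SRC3 against FRC1 numbered 5 without FRC1 replicate 1 and 1 without SRC3 replicate 2 or FRC1 replicate 2. For the same pair, 2 rose without SRC3 replicate 2 or 3 or FRC1 replicate 2 or 3 and 1 without SRC3 replicate 1, FRC1 replicate 1 or PAR replicate 1. Peg13 fell to 7.82 ± 0.977 CPM in SRC3, against 12.3 ± 0.695 CPM in PAR (adjusted p = 0.00061), and Kcnq1ot1, another imprinted transcript, rose to 3.96 ± 0.805 CPM in SRC3, against 2.33 ± 0.623 CPM in PAR (adjusted p = 0.020). Hotairm1 rose to 3.26 ± 0.505 CPM in FRC1, against 1.96 ± 0.375 CPM in PAR (adjusted p = 0.023), and Trp53cor1, which is induced by p53, fell to 1.38 ± 0.236 CPM in SRC3, against 3.00 ± 1.12 CPM in PAR (adjusted p = 0.011). The remaining genes named by the same rule were Dleu2, which rose in SRC3 against PAR (log2 fold change 0.75), Cep83os, which fell in FRC1 against PAR (-0.74) and rose in SRC3 against FRC1 (0.58), and 5 genes that the annotation lists as processed transcripts although their names are those of protein-coding genes. Of these, Spata5l1 rose and Trerf1 fell in FRC1 against PAR (0.51 and -0.52), Abhd1 fell in SRC3 against PAR (-0.80), and Ifi30 and Zswim6 fell in SRC3 against FRC1 (-0.75 and -0.55).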

How the data were processed

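The authors deposited raw counts of reads per gene as whole numbers, with no normalization. Per the submitters' processing notes the tools were HISAT2 2.1.0, HTSeq 0.9.1 and DESeq2 with build GRCm38, and no source used here gives their settings, such as the counting strand or mode. Reads in no gene made up 5.923 to 7.917% of those uniquely aligned, and ambiguous ones 1.175 to 1.214%. These and reads with several alignments stayed out of library sizes. Groups were taken from the sample labels. Genes kept by filterByExpr (12540, edgeR 4.0.16, R 4.3.3) were fitted with TMM factors in a single quasi-likelihood model of all 9 libraries by group, leaving 6 residual degrees of freedom. The tests were two-sided with Benjamini-Hochberg adjustment over all tested genes at a threshold of 0.05, and the steps were tested on simulated data. Fold changes against 0 counts are bounds from 3 counts over the group, which cover counting error only. The counts of replicate pairs differed by more than sampling noise (chi-square per degree of freedom at least 1.84), and each library was fitted as a sample. Separate libraries of the same culture can differ in this way too, so this does not show that replicates were independent. Locations, gene classes and exon lengths come from GENCODE M21 by identifier (47224 genes matched), and sequences from RefSeq.

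The members and gene lists were chosen with earlier results of these data known. Named genes were all members, every neighbour, and for each member the 2 genes of highest Pearson r on log2 CPM (prior count 2). The genes of largest change from each list and from the long non-coding class were also named. These had an adjusted p under 0.05 and groups that do not overlap. Their mean in the higher group was at least 1 CPM for the lists and at least 5 CPM for the long non-coding class. Predicted and clone names of that class were left out. Nop58, Upf1, Nono, Sfpq, E2f1 and the further snoRNA hosts past the threshold were chosen after their values were seen. Alternatives were other size factors, filters, DESeq2 1.42.0, limma 3.58.1 voom, a fit of only the groups compared, a replicate block and leaving out each library. Some genes that these rules name are not reported here.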

Additional observations from a re-analysis of the deposited data

How the results depend on the processing

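Single omitted libraries and a stricter count filter both moved counts. With a library left out, genes called in FRC1 against PAR numbered 2327, without FRC1 replicate 3, to 3987, those of the long non-coding class in that comparison 25 to 65, and selected genes that did not overlap 2 to 7 in FRC1 against PAR and 1 to 5 in SRC3 against FRC1. For the overlaps, the share of all tested genes under the same omissions is not given here. Requiring at least 5 CPM in 3 libraries left fewer long non-coding genes to test, with 29 called in FRC1 against PAR, 60 in SRC3 against PAR and 37 in SRC3 against FRC1, and DESeq2 called 31 in FRC1 against PAR, where the cause was not tested.

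Among the selected genes, differences near 0 changed sign under some alternatives: those of Neat1 and Pvt1 in all 3 comparisons, of Malat1 in SRC3 against PAR and in SRC3 against FRC1, and of Zfas1 in SRC3 against FRC1. The other differences kept their direction under the alternatives run. The bound on Platr3 was 37.5 to 59.9 for SRC3 against PAR and 101 to 162 for SRC3 against FRC1, lowest where an SRC3 library was left out, which raises the floor.

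Of the neighbouring genes, those with a log2 fold change near 0 changed sign and none of these was called. With single libraries left out, FRC1 against PAR gave -0.11 to 0.13 for Zbtb37, -0.029 to 0.017 for Slc3a2, -0.55 to 0.53 for Gm11472 and -0.033 to 0.014 for Pitpnb. SRC3 against PAR gave -0.12 to 0.16 for Plcb1, -0.009 to 0.057 for Frmd8, -0.12 to 0.12 for Rc3h1, -0.015 to 0.043 for Taf12, -0.29 to 0.26 for Tpm3-rs7 and -0.26 to 0.19 for Cryba4. SRC3 against FRC1 gave -0.013 to 0.14 for Plcb4, -0.15 to 0.091 for Rc3h1 and -0.47 to 0.071 for Tpm3-rs7. With library sizes alone, FRC1 against PAR gave 0.002 for Slc3a2, 0.004 for Gm11472 and 0.002 for Pitpnb, and limma voom gave -0.01 for Plcb1 in SRC3 against PAR. Rc3h1 in SRC3 against FRC1 was 0.005 with RLE size factors, 0.002 with library sizes alone, 0.012 with the 5 CPM filter, 0.005 with DESeq2 and 0.008 in a fit of only the groups compared. Calls were lost under 9 settings for Slc3a2 in SRC3 against PAR, under 5 for Slc3a2 and Fam49b and 4 for Cryba4 in SRC3 against FRC1, under 4 for Ddx27 and 1 for Wdr74 in FRC1 against PAR, and under 2 for Gpc6 in SRC3 against PAR. Calls were gained under 6 settings for Cryba4 and 3 for Plcb4 in FRC1 against PAR, under 4 for Frmd8, 3 for Znfx1 and 1 for Wdr74 in SRC3 against FRC1, and under 1 for Zbtb37 in SRC3 against PAR. The cause was not tested.

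With the replicate number as a block, genes called numbered 4798 in SRC3 against PAR, 3560 in FRC1 against PAR and 4221 in SRC3 against FRC1. In 14 of 18 cases a library's deviation from its group mean correlated best with the library of its own number in another group. The cases that did not all lay between FRC1 and SRC3, so every case with PAR did. The correlations of same-numbered libraries were at most 0.118. The labels state no pairing, so the numbers were not taken as pairs. Standard errors and list counts given above come from the fit without this block. Whether same-numbered libraries shared a batch was not tested. Slc3a2 lost its call in SRC3 against PAR under the block. The depth of 13012996 to 14336279 gene counts leaves Miat and most Platr genes without a comparison.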
